A study of Mus musculus with 4 samples.

Results

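The 6 genes described belong to the interleukin-1 (IL-1) system of the mouse: the ligands Il1b and Il1a, the antagonist Il1rn and the receptors Il1r1, Il1r2 and Il1rap. Their transcripts were followed across the cells of metastasis-bearing and sham-operated mice. The members were taken by gene symbol, and all 6 were found, among 32285 genes counted. Lungs and blood were collected from female C57/Bl6 mice of 6 to 8 weeks on day 7 after surgery. In the metastasis arm 800000 B16F10 melanoma cells were injected into the spleen on day 0, which seeds the liver, and in the sham arm saline was injected. The spleen was removed at once in both arms, and all mice also carried a subcutaneous B16F10 tumour started with 250000 cells, so neither arm was free of tumour or had a spleen. Each tissue and arm gave 1 droplet library, named here metastasis lung, sham lung, metastasis blood and sham blood. Lung was homogenised, filtered and passed over columns that remove dead cells, while blood CD45+ leukocytes came from density centrifugation, so tissue and preparation cannot be told apart. The series text also names kits for CD45+ enrichment and ties them to no tissue, so whether lung cells were enriched for CD45 is not settled. The labels do not say how many mice a library came from. With 1 library a group no difference has a replicate check: intervals cover counting error only, and a difference between libraries is not shown to be one between conditions.

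IL-1 beta (Il1b) and IL-1 alpha (Il1a) are inflammatory cytokines that act on the same receptor. They bind the signalling receptor Il1r1, which then recruits the accessory chain Il1rap and starts MyD88 and NF-kB signalling, and the antagonist Il1rn occupies Il1r1 without starting a signal. Il1r2 binds the ligands but has no signalling domain and acts as a decoy, and Il1rap also serves the receptors of other cytokines of the family, such as IL-33. Transcripts do not show how much IL-1 beta is cut from its precursor and released.

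The measured unit was the unique molecular identifier (UMI), a tag that marks 1 captured transcript molecule. Kept cells numbered 12969 in metastasis lung, 13443 in sham lung, 8483 in metastasis blood and 12274 in sham blood. Haemoglobin took 43.7% to 78.6% of all UMIs of a library, so levels are given as counts per 1000000 UMIs without haemoglobin (CPM). Median depth without haemoglobin was 1364 UMIs per cell in metastasis lung, 2544 in sham lung, 1936 in metastasis blood and 3713 in sham blood. Cells were placed in classes by marker genes, none of which is among the 6 members, and classes carry the ending "-like". Library pairs shared 31 to 47 kept cell barcodes. Free RNA was read from 2 sources, B-like cells and haemoglobin-rich barcodes with under 200 genes, because neither should carry myeloid transcripts.

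Il1b lies on chr2:129364570-129371139 and Il1a on chr2:129299610-129309972, both on the minus strand of GRCm38 and 54597 bp apart. Il1rn lies on chr2:24336853-24351494 on the plus strand. Il1r2 (chr1:40074079-40125231) and Il1r1 (chr1:40225080-40317257) are neighbours on the plus strand, 99848 bp apart, and Il1rap lies on chr16:26581704-26730117. The antisense gene Il1bos overlaps Il1b over 1243 bp and was counted as a gene of its own, with 45 UMIs in metastasis lung, 9 in sham lung, 122 in metastasis blood and 63 in sham blood. The bases just upstream of the annotated starts of both ligands and the antagonist are shown because the results on neutrophil-like cells turn on these 3 genes, which share a chromosome. They were read from the genome in the direction of transcription, and capitals mark letters found by a motif search on both strands. RefSeq holds 3 promoters for Il1rn, and only the first by position is shown, over 243 bases. Which of them neutrophil-like cells use was not tested.
Il1b, chr2:129371140-129371389, minus strand: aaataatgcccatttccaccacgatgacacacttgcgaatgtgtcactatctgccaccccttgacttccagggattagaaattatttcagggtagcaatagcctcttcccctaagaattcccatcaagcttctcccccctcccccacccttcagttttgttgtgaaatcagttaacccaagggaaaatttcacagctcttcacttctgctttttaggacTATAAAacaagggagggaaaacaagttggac
Il1a, chr2:129309973-129310222, minus strand: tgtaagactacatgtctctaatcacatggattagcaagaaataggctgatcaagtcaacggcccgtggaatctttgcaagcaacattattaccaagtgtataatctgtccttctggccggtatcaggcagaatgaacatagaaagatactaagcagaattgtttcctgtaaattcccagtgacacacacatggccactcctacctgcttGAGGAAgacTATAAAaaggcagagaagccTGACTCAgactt
Il1rn, chr2:24336610-24336852, plus strand: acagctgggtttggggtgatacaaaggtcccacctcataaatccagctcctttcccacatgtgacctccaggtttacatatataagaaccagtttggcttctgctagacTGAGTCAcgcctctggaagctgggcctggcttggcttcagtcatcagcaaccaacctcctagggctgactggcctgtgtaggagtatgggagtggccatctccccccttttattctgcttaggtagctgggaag
In both ligand genes TATAAA, the core of a TATA box, stood close to the start, from base 31 to 26 before it in Il1b and from base 32 to 27 in Il1a. The letters occurred in 12.4% of 32851 RefSeq promoters over their 250 upstream bases. Il1a also held GAGGAA, a core bound by PU.1 (23.3% of promoters), and TGACTCA, an AP-1 site (TGANTCA, 6.75% of promoters). The Il1rn window shown held the AP-1 letters as TGAGTCA from base 134 to 128. No match to TTGCNNAA, letters bound by C/EBP (9.56% of promoters), was found in these 3 windows, which says nothing on sites elsewhere.

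Il1b transcripts were mostly in neutrophil-like cells in 3 of the 4 libraries and were spread over several myeloid classes in sham lung. Kept cells held 16572 Il1b UMIs in metastasis lung, 2044 in sham lung, 23500 in metastasis blood and 10899 in sham blood. Neutrophil-like cells, which numbered 1288 in metastasis lung, 51 in sham lung, 2421 in metastasis blood and 426 in sham blood, held 80.0% of them in metastasis lung (95% Clopper-Pearson interval 79.4% to 80.6%) and 31.3% in sham lung (29.3% to 33.4%). In blood they held 92.2% of Il1b UMIs in the metastasis library and 79.3% in the sham library. In sham lung, non-classical monocyte-like cells held 22.1%, classical monocyte-like cells 10.9%, basophil-like cells 4.5% and alveolar macrophage-like cells 2.59%. The same classes held 7.94%, 4.78%, 1.26% and 0.05% of Il1b UMIs in metastasis lung. These shares follow the number of neutrophil-like cells caught as well as the level in each cell.

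**Figure D1:**
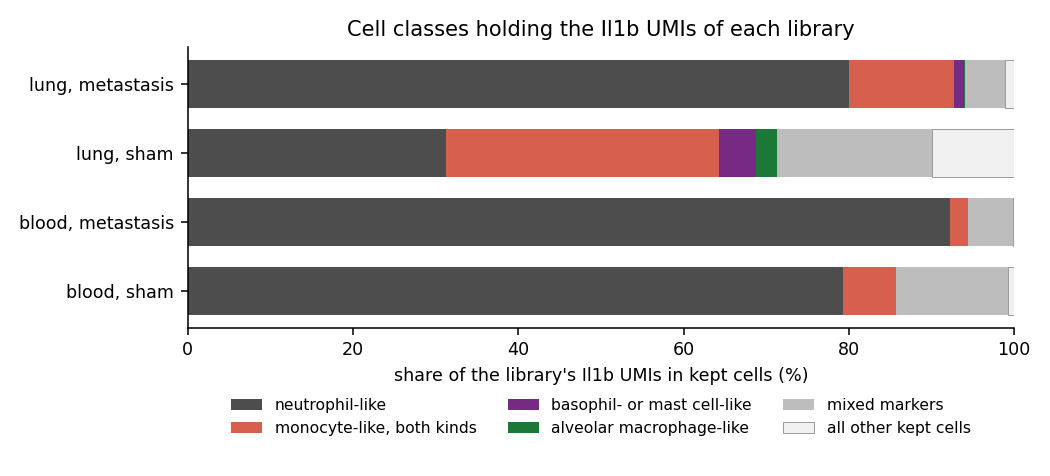
Share of each library's Il1b UMIs (percent, horizontal axis) by cell class, with metastasis above sham in lung and blood. Neutrophil-like cells hold 80.0% in metastasis lung and 31.3% in sham lung, and 92.2% and 79.3% in metastasis and sham blood.

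Per unit of RNA, Il1b in neutrophil-like cells differed by less than 2-fold between the lungs and was lower in metastasis blood. It stood at 5239 CPM in metastasis lung (95% Poisson interval 5150 to 5329), with a UMI in 84.2% of cells, and at 6065 CPM in sham lung (5604 to 6553), with a UMI in 84.3% of cells. The log2 ratio of metastasis over sham was -0.21 (-0.33 to -0.09). In blood the level was 3059 CPM in the metastasis library (80.4% of cells) and 6402 CPM in the sham library (98.4% of cells), a log2 ratio of -1.07 (-1.10 to -1.03). By the same measure, 8.43% of all genes measured in these cells fell by 2-fold or more. Taken as the mean of each cell's CPM the blood ratio was -0.74, which ends the 2-fold difference.

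The lower level in metastasis blood sat in one group of cells. In a clustering made without the IL-1 genes, blood neutrophil-like cells fell into 2 main clusters. In the cluster that both blood libraries shared, Il1b stood at 6319 CPM in 619 metastasis cells and 6481 CPM in 421 sham cells, with a UMI in 98.9% and 99.0% of them. In the other cluster, with 1793 cells of metastasis blood and almost none of the other libraries, it stood at 2201 CPM, with a UMI in 74.1% of cells. A cluster of 1 library may mark that library and not a cell state, and these clusters were looked at after the totals were known.

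Monocyte-like cells carried several times more Il1b in lung than in blood, in both arms. Classical monocyte-like cells had 1502 CPM in metastasis lung (110 cells, 1399 to 1611) and 1136 CPM in sham lung (41 cells, 992 to 1296). In blood they had 198 CPM in the metastasis library (279 cells) and 212 CPM in the sham library (223 cells). The lung level was 7.61-fold the blood level in the metastasis arm (log2 ratio 2.93, 2.75 to 3.10) and 5.36-fold in the sham arm (2.42, 2.18 to 2.66). With clusters in place of the marker gate these folds were 3.22 and 2.96, as the blood levels moved to 455 and 435 CPM in metastasis and sham blood. Under a stricter gate the log2 ratios were 3.58 and 4.02, with blood at 127 and 68.6 CPM. Of all genes measured in these cells, 4.48% passed 2-fold towards lung in the metastasis arm and 6.83% in the sham arm.

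The same held for non-classical monocyte-like cells, the patrolling monocytes. They had 1703 CPM in metastasis lung (230 cells) and 1511 CPM in sham lung (95 cells), against 237 CPM in metastasis blood (83 cells) and 246 CPM in sham blood (156 cells). The lung level was 7.19-fold the blood level in the metastasis arm and 6.15-fold in the sham arm, or 5.57-fold and 3.86-fold with clusters and 11.3-fold and 7.95-fold under the stricter gate, and 7.34% and 5.0% of measured genes passed 2-fold towards lung in these arms. Cells with an Il1b UMI were 80.4% of these cells in metastasis lung, 87.4% in sham lung, 47.0% in metastasis blood and 50.6% in sham blood. After thinning each cell to 1000 UMIs the shares were 65.5% and 65.2% in lung and 14.5% and 14.4% in blood, so the tissues stayed apart at equal depth and the arms did not.

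Neutrophil transcripts, read from S100a8 and S100a9, were few in these lung cells. Over the 16 listed neutrophil markers, classical monocyte-like cells had 645 and 425 CPM summed in metastasis and sham lung. In metastasis and sham blood they had 2815 and 1971 CPM. Non-classical ones had 1042 and 616 CPM in metastasis and sham lung, against 846 and 833 CPM in metastasis and sham blood. If every S100a8 and S100a9 UMI in a class were neutrophil RNA, such RNA would bring with it 0.23% of the Il1b UMIs of classical and 0.59% of those of non-classical monocyte-like cells in metastasis lung, and 0.03% and 0.08% in sham lung. In blood the same figure was higher for classical monocyte-like cells, 20.5% in the metastasis library and 59.7% in the sham library. The summed CPM of 8 immediate early genes, transcripts that rise when tissue is handled, was 3507 in metastasis lung and 4637 in sham lung in classical monocyte-like cells, against 6068 in metastasis blood and 6446 in sham blood. Non-classical ones had 4364 and 3949 in metastasis and sham lung, against 4809 and 4407 in metastasis and sham blood. Of the single genes, Atf3 was higher in lung non-classical cells, at 355 against 265 CPM in the metastasis arm and 342 against 234 CPM in the sham arm. That list was chosen after the lung levels were seen, and the part of handling in the lung levels was not tested.

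Within a tissue the arms differed little in monocyte-like Il1b. The log2 ratio of metastasis over sham in lung was 0.40 (0.19 to 0.62) in classical and 0.17 (0.02 to 0.33) in non-classical monocyte-like cells, and in blood -0.10 (-0.30 to 0.10) and -0.05 (-0.38 to 0.27). None passed 2-fold. A stricter marker gate gave 0.89 for blood classical monocyte-like cells, and clusters in place of the gate gave 0.73 for lung non-classical monocyte-like cells.

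**Figure D2:**
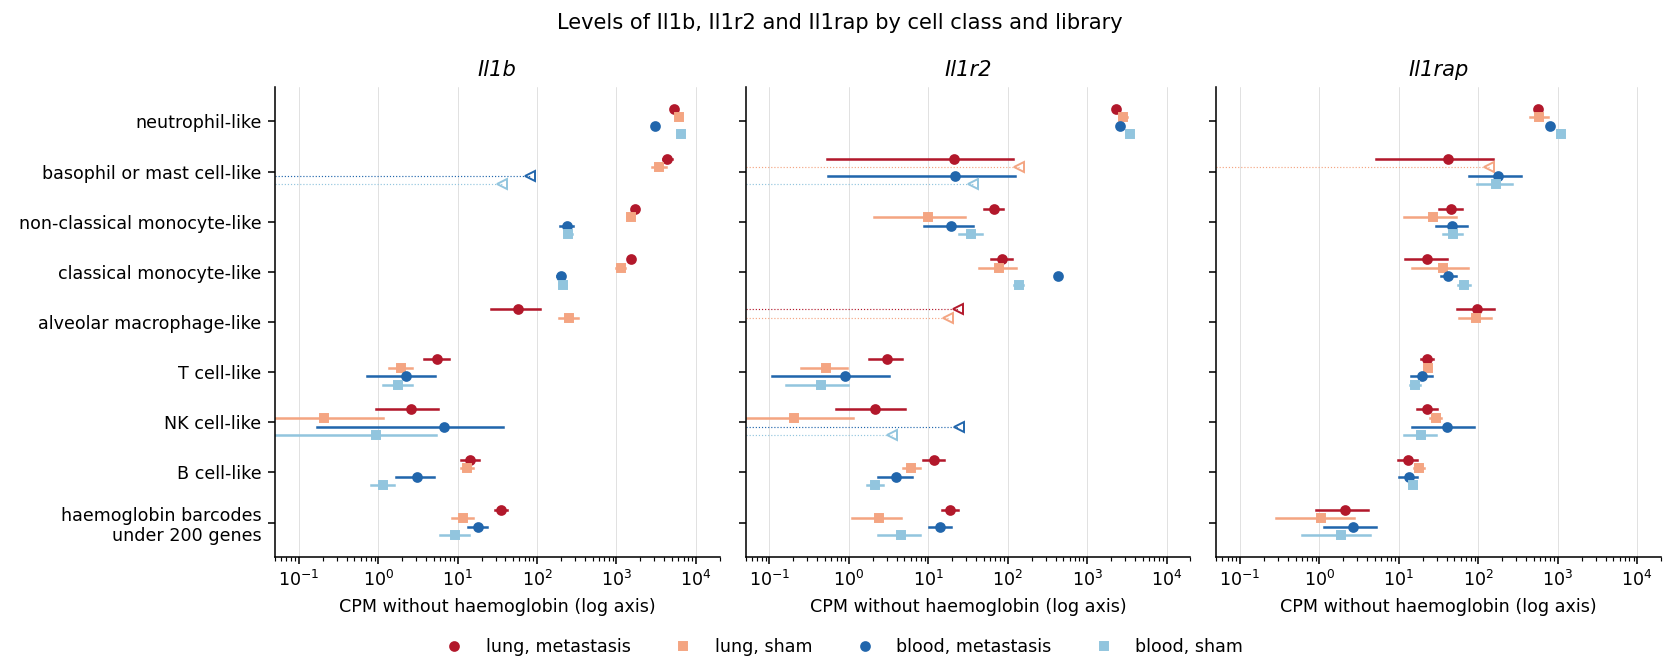
Levels of Il1b, Il1r2 and Il1rap (CPM without haemoglobin, log axis) by class in the 4 libraries. Bars are 95% Poisson intervals, and open triangles mark the upper limit where no UMI was counted; Il1b stands at 4383 and 3432 CPM in basophil-like cells of metastasis and sham lung and at 0 UMIs in blood ones.

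Basophil-like cells of the lung, taken by the marker gate, carried Il1b at a level within 2-fold of that of neutrophil-like cells of the same library, and gated basophil-like cells of the blood carried none that was detected. These rare granulocytes are known for IL-4 and histamine. In metastasis lung 17 of 22 cells held Il1b, 209 UMIs in all or 4383 CPM (3809 to 5020), with a median of 6.5 UMIs in a cell and at most 33. In sham lung 6 of 8 cells held it, 92 UMIs or 3432 CPM (2766 to 4208), with a median of 9.5 UMIs and at most 24. In blood 0 UMIs were counted in 14 metastasis cells and 0 in 29 sham cells, although the lung cells were the shallower ones, with median depths of 2213 and 2656 UMIs in metastasis and sham lung against 3270 and 3605 in metastasis and sham blood.

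The metastasis lung level was at least 66.8-fold higher than the metastasis blood level, with blood set at the floor of 3 UMIs, and 15.4% of genes measured in these cells passed 2-fold towards lung. A count of 0 set at 3 cells allows shares with a UMI of up to 21.4% of the 14 and 10.3% of the 29 cells. With 8 cells, sham lung was too small for a ratio.

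The closeness to neutrophil-like cells and the lung over blood difference were found with the marker gate. With the basophil cluster in its place the closeness ended in both lungs. The lung over blood difference ended in the metastasis arm. That cluster held every gated cell and 28, 4, 3 and 10 others in metastasis lung, sham lung, metastasis blood and sham blood. Over the whole cluster Il1b stood at 852 CPM in 50 cells of metastasis lung and 2155 CPM in 12 cells of sham lung, against 5276 and 5625 CPM in neutrophil clusters of the same libraries. It stood at 1181 CPM in 17 cells of metastasis blood and 322 CPM in 39 cells of sham blood. The lung over blood log2 ratio in the metastasis arm was thus -0.47, while in the sham arm the lung level stayed above the blood level. The blood UMIs were all in cells outside the gate, 89 in 1 of 3 metastasis cells and 58 in 4 of 10 sham cells. The other cluster cells of the lung held 79 UMIs in 5 of 28 metastasis cells (272 CPM) and 10 UMIs in 1 of 4 sham cells (487 CPM).

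The class markers were detected in both tissues. Mcpt8, a basophil protease, stood at 3586 CPM in metastasis lung, 1604 in sham lung, 2450 in metastasis blood and 1159 in sham blood, and Cpa3, Ms4a2, Gata2, Cd200r3, Fcer1a and Cyp11a1 had UMIs in all 4 libraries. The mast cell proteases Mcpt4 and Tpsb2 were at 0 in all of them, and Cma1 had 4 UMIs in sham lung. Of the neutrophil list, 5 of 16 markers had a UMI in metastasis lung and 3 of 16 in sham lung, against 5 and 6 of 16 in metastasis and sham blood. Hdc, which makes histamine and is a basophil gene too, gave 262 and 82 of the 322 and 93 UMIs on that list in metastasis and sham lung. S100a9, Csf3r, Retnlg, Mmp8, Ly6g and G0s2 were at 0 in both lung libraries, and S100a8 and S100a9 together had 3 UMIs in metastasis lung and 0 in sham lung. Of the classical monocyte list 2 of 11 markers were detected in each lung library, with Ly6c2, Csf1r, Ctss and Mpeg1 at 0. The chemokine Ccl9 gave 162 of the 169 and 54 of the 55 UMIs on that list in metastasis and sham lung. Of the alveolar macrophage list only the chemokine Ccl6 was detected in lung, with 513 and 109 UMIs. Blood cells held both too, Ccl9 with 102 and 263 UMIs and Ccl6 with 337 and 862 in metastasis and sham blood.

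Of 5 other genes, looked at after Il1b, 4 also stood higher in lung than in blood basophil-like cells. They are given for the marker gate only, and 15.4% of all genes measured there passed 2-fold towards lung in the metastasis arm. The neutrophil attractant Cxcl2 had 170 UMIs in 14 of 22 cells of metastasis lung and 17 in 2 of 8 cells of sham lung. It had 0 in both blood libraries. Il6 stood at 2685 and 1231 CPM in metastasis and sham lung, against 503 and 432 CPM in metastasis and sham blood. Nfkbia, a target and inhibitor of NF-kB, stood at 3544 and 1604 CPM in lung, against 263 and 324 CPM in blood. Il13 stood at 440 and 485 CPM in lung, in 9 of 22 and 2 of 8 cells, against 0 and 29.5 CPM in blood. The chemokine Ccl3 went the other way, with 7215 and 3805 CPM in lung, against 10347 and 12408 CPM in blood. Summed immediate early genes were at 8850 and 5073 CPM in metastasis and sham lung, against 11660 and 20601 CPM in metastasis and sham blood.

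**Figure D3:**
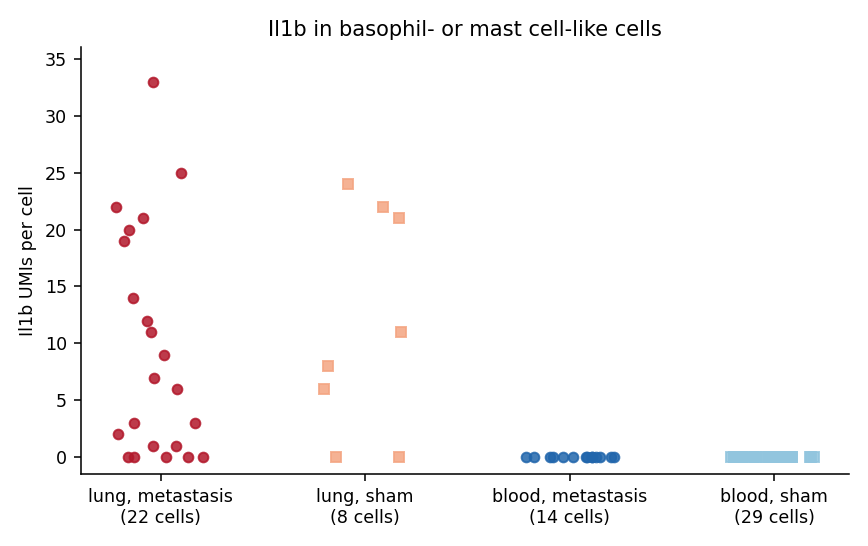
Il1b UMIs in each basophil-like cell (vertical axis) of the 4 libraries, 1 point a cell. Cells reach 33 UMIs in metastasis lung and 24 in sham lung, and all 14 and 29 cells of metastasis and sham blood are at 0.

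Il1b was lower in alveolar macrophage-like cells of metastasis lung than in those of sham lung. The 29 metastasis cells held 9 UMIs (58.0 CPM, 26.5 to 110) in 6 cells, and the 40 sham cells held 53 UMIs (251 CPM, 188 to 328) in 14 cells, of which 1 cell held 10. The log2 ratio was -2.11 (-3.32 to -1.08), and 4.02% of genes measured in these cells were lower by 2-fold or more. With clusters in place of the gate the ratio was -1.47. The interval of the metastasis level held the free RNA level of that library, 35.1 CPM in haemoglobin-rich barcodes (29.4 to 41.5). Those of sham lung had 11.6 CPM. B-like cells, the other source of free RNA, had 14.5 CPM in metastasis lung, below the interval of the macrophage-like cells, and 13.1 CPM in sham lung. After thinning to 1000 UMIs, 0% of 23 metastasis cells and 7.41% of 27 sham cells held Il1b. S100a8 and S100a9 had 6 UMIs in these metastasis cells and 7 in the sham cells.

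Lymphocyte-like cells held Il1b at a level near or below that of haemoglobin-rich barcodes. B-like cells had 14.5 CPM in metastasis lung and 13.1 CPM in sham lung, and 3.05 CPM in metastasis blood and 1.15 CPM in sham blood. Haemoglobin-rich barcodes had 35.1 and 11.6 CPM in metastasis and sham lung, and 18.1 and 9.32 CPM in metastasis and sham blood. T-like cells had 5.49 CPM in metastasis lung (33 UMIs) and 1.92 CPM in sham lung (37 UMIs, 21 of them in 1 cell), a log2 ratio of 1.51 (0.79 to 2.23) that moved to 2.62 with a stricter gate. B-like and T-like cells also stood higher in lung than in blood for Il1b, by 4.75-fold and 11.5-fold for B-like cells of the metastasis and sham arms and by 2.46-fold for T-like cells of the metastasis arm. Of genes measured in these cells 4.38% and 6.16% (B-like) and 7.84% (T-like) passed 2-fold towards lung. Levels at or below those of haemoglobin-rich barcodes are read as background. Other classes held single events: 1 plasmacytoid dendritic-like cell of metastasis lung held 7 Il1b UMIs, and 1 of 3 interstitial macrophage-like cells of sham lung held 16.

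Il1a was rare. Kept cells held 71 Il1a UMIs in metastasis lung, 22 in sham lung, 7 in metastasis blood and 3 in sham blood. Neutrophil-like cells held 52 UMIs in metastasis lung (20.6 CPM, in 36 of 1288 cells) and 4 in sham lung (37.9 CPM, in 3 of 51 cells), a log2 ratio of -0.88 whose interval ran from -2.33 to 1.05. In blood neutrophil-like cells there were 6 UMIs in the metastasis library and 0 in the sham library. The metastasis lung level was 24.3-fold the metastasis blood level (log2 ratio 4.60, 3.38 to 6.11), and 7.42% of genes measured in neutrophil-like cells passed 2-fold towards lung in that arm.

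In sham lung the largest share of Il1a UMIs was in alveolar macrophage-like cells. These resident macrophages of the air spaces held 4 UMIs in metastasis lung (25.8 CPM, in 3 of 29 cells) and 11 in sham lung (52.1 CPM, in 7 of 40 cells), 4 of 71 and 11 of 22 Il1a UMIs of their libraries. A single classical monocyte-like cell of metastasis lung held 9 Il1a UMIs. The comparison of these macrophages fell under the 20 UMIs needed for a ratio, and outside these 3 classes no class of a library held more than 3.

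Il1rn, the antagonist, was lower in neutrophil-like cells of the metastasis arm in both tissues. In lung it stood at 124 CPM in metastasis cells (314 UMIs, 18.8% of cells) and 294 CPM in sham cells (31 UMIs, 33.3% of cells), a log2 ratio of -1.24 (-1.78 to -0.66), in a comparison where 9.1% of genes measured were 2-fold or more lower. In blood it stood at 39.7 CPM in metastasis cells (281 UMIs, 10.3% of cells) and 131 CPM in sham cells (177 UMIs, 31.2% of cells), a log2 ratio of -1.72 (-2.0 to -1.44). Both ratios stayed past 2-fold under 10 alternatives, from -1.29 to -1.03 in lung and from -1.86 to -1.47 in blood. Within single clusters they parted. In the lung cluster of 1257 metastasis and 48 sham cells the ratio was -1.27 (-1.80 to -0.69). In the blood cluster shared by both libraries Il1rn stood at 95.8 CPM in metastasis cells and 131 CPM in sham cells, and the ratio of -0.45 (-0.78 to -0.12) was no longer past 2-fold. The cluster found almost only in metastasis blood stood at 24.9 CPM.

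Among neutrophil-like cells that held Il1b, the share that also held Il1rn was smaller in the metastasis libraries. In lung these were 20.6% of 1085 metastasis cells and 39.5% of 43 sham cells. In blood they were 11.2% of 1947 metastasis cells and 30.8% of 419 sham cells. The blood cells had median depths of 2280 UMIs in the metastasis library and 2954 in the sham library, and the lung cells 1528 and 1452. Within the arms Il1rn was higher in lung than in blood neutrophil-like cells, 3.13-fold in the metastasis arm and 2.24-fold in the sham arm. Of genes measured in these cells in the sham arm, 9.63% passed 2-fold towards lung.

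Outside neutrophil-like cells Il1rn was seen in alveolar macrophage-like cells and hardly elsewhere. These held 17 UMIs in metastasis lung (110 CPM, in 11 of 29 cells) and 27 in sham lung (128 CPM, in 15 of 40 cells). The log2 ratio was -0.22 (-1.19 to 0.70), and 0.73 by the mean of each cell's CPM. They held 4.8% of the Il1rn UMIs of metastasis lung and 31.8% of those of sham lung. Classical monocyte-like cells held 4 UMIs in metastasis lung and 7 in sham lung, all 7 in 1 cell, with 8 and 11 in metastasis and sham blood. Non-classical monocyte-like cells held 5 UMIs in metastasis lung and 4 in sham lung, with 0 and 6 in metastasis and sham blood. No Il1rn UMI was counted in the 73 basophil-like cells, the lung ones of which held Il1b.

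Il1r2, the decoy receptor, marked neutrophil-like cells in all libraries. It stood at 2342 CPM in metastasis lung and 2814 CPM in sham lung, a log2 ratio of -0.27 (-0.43 to -0.09). In blood it stood at 2569 CPM in the metastasis library and 3495 CPM in the sham library, a log2 ratio of -0.44 (-0.49 to -0.40), or -0.75 (-0.81 to -0.68) within the shared blood cluster. Between 91.8% and 97.7% of neutrophil-like cells of a library held it. Lung over blood the log2 ratios were -0.13 in the metastasis arm and -0.31 in the sham arm.

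In classical monocyte-like cells of the blood, Il1r2 was higher in the metastasis library. It stood at 431 CPM (903 UMIs, 42.7% of 279 cells) in metastasis blood and 137 CPM (273 UMIs, 25.6% of 223 cells) in sham blood, a log2 ratio of 1.65 (1.45 to 1.85). Of all genes measured in these cells 3.75% were higher by 2-fold or more. After thinning to 1000 UMIs, 28.2% of metastasis cells and 6.82% of sham cells held it. Lung classical monocyte-like cells were at 85.4 CPM in metastasis lung (45 UMIs) and 76.8 CPM in sham lung (15 UMIs). In the metastasis arm the lung level was thereby lower than the blood level, at a log2 ratio of -2.34 (-2.80 to -1.90), with 9.61% of measured genes past 2-fold towards blood. Without cells holding platelet UMIs that ratio was -0.45.

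This difference moved with platelet transcripts. All 8 platelet markers had UMIs in these blood cells, with a summed level of 2216 CPM in the metastasis library and 688 CPM in the sham library. In cells with at least 2 UMIs of 5 platelet genes (Pf4, Ppbp, Gp9, Gp1bb and Treml1) Il1r2 stood at 661 CPM in 146 metastasis cells and 169 CPM in 123 sham cells, a log2 ratio of 1.97 (1.75 to 2.20). In cells with fewer it stood at 116 CPM in 133 metastasis cells and 87.3 CPM in 100 sham cells, and the ratio of 0.41 (-0.04 to 0.88) was no longer past 2-fold. Platelet-like barcodes of metastasis blood themselves held 3 Il1r2 UMIs in 189 cells. A stricter marker gate gave a log2 ratio of 3.09. The platelet split also parted neutrophil transcripts. In metastasis blood S100a8 stood at 1775 CPM with at least 2 platelet UMIs and 356 CPM with fewer, and S100a9 at 1006 and 262 CPM. In sham blood S100a8 stood at 695 and 381 CPM and S100a9 at 1095 and 530 CPM. The split thus does not single out platelet transcripts, and the part of platelets in the result was not tested beyond it.

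**Figure D4:**
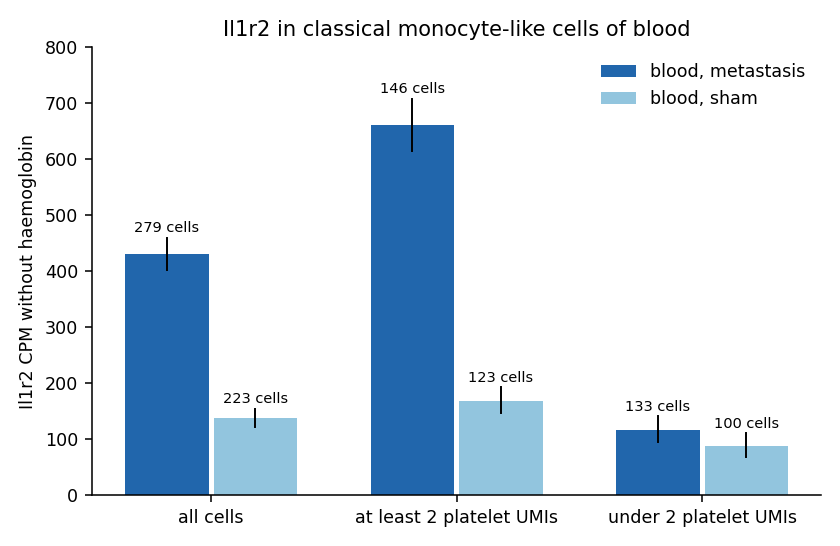
Il1r2 (CPM without haemoglobin) in blood classical monocyte-like cells, all cells and split by platelet UMIs, metastasis left of sham, with 95% Poisson intervals. With at least 2 platelet UMIs the levels are 661 and 169 CPM, and with fewer 116 and 87.3 CPM.

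Neutrophil transcripts moved with Il1r2 in these cells too. Of the neutrophil list, 14 of 16 markers had UMIs in metastasis blood and 13 of 16 in sham blood, summing to 2815 and 1971 CPM, with Ly6g and Ltf at 0 in both. Read from S100a8 and S100a9 at the ratio found in neutrophil-like cells, neutrophil RNA would bring 7.90% of the Il1r2 UMIs in metastasis blood and 50.4% of those in sham blood. Cells with an Il1r2 UMI differed from the rest, in a split made after the level was seen. In metastasis blood Chil3, a chitinase-like gene of myeloid cells, stood at 7521 CPM in 119 cells with Il1r2 and 1389 CPM in 160 cells without it. Neutrophil-like cells held Chil3 too, at 2212 CPM in the cluster found almost only in metastasis blood. In sham blood Chil3 stood at 1128 CPM in 57 cells with Il1r2 and 1575 CPM in 166 cells without it. S100a8 was higher in cells with Il1r2 in both libraries, at 2382 against 234 CPM in metastasis blood and 1819 against 49.3 CPM in sham blood. Cxcr2, a neutrophil marker, had 50 UMIs in 25 of 119 metastasis cells with Il1r2 and 3 in 1 of 160 without it. In sham blood it had 53 UMIs in 14 of 57 cells with Il1r2 and 0 in 166 cells without it. The part of neutrophil RNA in the Il1r2 levels was not tested.

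Non-classical monocyte-like cells of metastasis lung held more Il1r2 than those of sham lung, on few cells. There were 52 UMIs in 17 of 230 metastasis cells (67.3 CPM, up to 10 in a cell) and 3 UMIs in 3 of 95 sham cells (10.05 CPM), a log2 ratio of 2.74 (1.12 to 5.07). Of measured genes 5.76% were higher by 2-fold or more. The ratio was 1.70 under a stricter gate and 3.59 with clusters. Neutrophil markers with a UMI were 12 of 16 in these metastasis cells and 9 of 16 in the sham cells, at 1042 and 616 CPM summed. Ly6g, Camp, Ltf and Lcn2 were at 0 in both, while Cxcr2, Mmp9 and Ngp had UMIs in the metastasis cells only. S100a8 stood at 149 CPM in metastasis and 16.7 CPM in sham cells, and S100a9 at 237 and 20.1 CPM. The part of neutrophil RNA in this Il1r2 difference was not tested. In blood the same class held 9 UMIs in the metastasis library and 38 in the sham library, a log2 ratio of -0.84 (-2.07 to 0.24) that turned to 1.80 under a stricter gate. Lung over blood, Il1r2 in this class was at a log2 ratio of 1.81 (0.77 to 3.01) in the metastasis arm and -1.77 (-4.11 to -0.12) in the sham arm, where 7.78% of measured genes passed 2-fold towards blood. With clusters the first was 0.44, and under the stricter gate the second turned to 2.48.

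Il1r2 in T-like cells stood below the level of haemoglobin-rich barcodes, and B-like cells had 11.7 and 6.12 CPM in metastasis and sham lung. T-like cells had 3.00 CPM in metastasis lung and 0.52 CPM in sham lung, past 2-fold at a log2 ratio of 2.53 (1.34 to 3.81), while haemoglobin-rich barcodes of the same libraries had 18.8 and 2.36 CPM. Alveolar macrophage-like cells held no Il1r2 UMI in either lung library.

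Il1r1, the signalling receptor, had its highest level, among classes of at least 10 cells, in fibroblast or stroma-like cells of the lung. These held 13 UMIs in 7 of 18 metastasis cells (195 CPM, 104 to 333) and 36 UMIs in 15 of 34 sham cells (245 CPM, 172 to 339). The log2 ratio was -0.33 (-1.37 to 0.62), an interval that holds both equality and a 2-fold difference. Kept cells of all kinds held 70 Il1r1 UMIs in metastasis lung and 90 in sham lung, and 44 and 26 in metastasis and sham blood. Endothelial-like cells held 4 UMIs in metastasis lung and 2 in sham lung. In metastasis lung the 18 fibroblast or stroma-like cells among 12969 kept cells held 13 of the 70 Il1r1 UMIs, and in sham lung the 34 such cells among 13443 held 36 of the 90. The number of stroma-like cells caught follows the preparation, and CD45 enrichment of lung is not settled.

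A small set of T-like cells of metastasis lung held Il1r1. It was seen in 13 of 2057 T-like cells there (0.632%, 0.337% to 1.08%; 22 UMIs) and in 2 of 5220 in sham lung (0.0383%, 0.00464% to 0.138%; 2 UMIs). In blood it was seen in 1 of 581 metastasis cells and 2 of 2424 sham cells. The lung log2 ratio was 5.14 (3.11 to 8.27) and lay between 4.78 and 5.63 under the alternatives, beside 2.16% of genes measured in T-like cells that were higher by 2-fold or more. This share is also the background for Il1b and Il1r2 in these cells. After thinning to 1000 UMIs 7 metastasis cells and 0 sham cells held it.

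The T-like cells of metastasis lung stood at 3.66 CPM, against 0.785 CPM in its haemoglobin-rich barcodes (3 UMIs in 17666). B-like cells held it too, in 10 of 2176 metastasis cells (0.460%, 2.79 CPM) and 39 of 4751 sham cells (0.821%, 3.93 CPM), and the share of T-like cells in metastasis lung lay between these. In sham lung the haemoglobin-rich barcodes had 0.263 CPM (1 UMI, upper limit 1.46), so B-like cells stood above free RNA there and are not used as a background for Il1r1. In metastasis lung the upper limit of the barcodes was 2.29 CPM. The log2 ratio in B-like cells was -0.49 (-1.60 to 0.49).

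Type 17 genes, those of T cells that make IL-17, were seen in several of these cells. Of the 13 cells of metastasis lung 6 held at least 1 of 7 type 17 markers (46.2%), against 28 of 2044 cells without Il1r1 (1.37%). Il17a was seen in 3 of them and Il23r in 3. By subset 8 were conventional CD4-like, 1 was gamma delta-like and 4 had no subset. In sham lung 87 of 5218 cells without Il1r1 held a type 17 marker (1.67%), while the 2 cells with Il1r1 were CD8-like and held none.

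In blood neutrophil-like cells Il1r1 had 25 UMIs in 24 of 2421 metastasis cells (3.53 CPM) and 2 UMIs in 1 of 426 sham cells (1.48 CPM), a log2 ratio of 1.25 (-0.75 to 4.38). Here 14.6% of measured genes were higher by 2-fold or more. Haemoglobin-rich barcodes of the same libraries had 2.64 and 0.37 CPM, so the ratio is not read as a change. In lung neutrophil-like cells there were 5 UMIs in the metastasis library and 0 in the sham library.

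Il1rap, the accessory chain, was seen in lymphocyte-like as well as myeloid classes. Neutrophil-like cells had 564 CPM in metastasis lung and 588 CPM in sham lung (log2 ratio -0.06, -0.43 to 0.33), and 787 CPM in metastasis blood and 1084 CPM in sham blood (-0.46, -0.55 to -0.38). Within the shared blood cluster the direction turned, with 1242 CPM in metastasis cells and 1097 CPM in sham cells (0.18, 0.08 to 0.28), while the cluster found almost only in metastasis blood stood at 665 CPM. Alveolar macrophage-like cells had 96.6 CPM in metastasis lung and 94.7 CPM in sham lung. T-like cells stayed between 15.9 and 23.3 CPM in the 4 libraries and B-like cells between 12.9 and 17.99 CPM, against 1.05 to 2.64 CPM in haemoglobin-rich barcodes. Lymphocyte-like cells therefore stood above free RNA for Il1rap, and in sham lung T-like cells held 48.1% of all its UMIs.

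Monocyte-like cells held Il1rap at levels between these. Classical ones had 22.8 CPM in metastasis lung (12 UMIs) and 35.8 CPM in sham lung (7 UMIs), and 42.0 CPM in metastasis blood and 65.8 CPM in sham blood (log2 ratio -0.65, -1.06 to -0.25). With clusters the blood ratio was 0.19. Non-classical ones had 45.3 and 26.8 CPM in metastasis and sham lung (0.76, -0.38 to 2.08; 1.47 with clusters) and 47.0 and 47.9 CPM in metastasis and sham blood.

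Basophil-like cells held Il1rap in blood, where Il1b was at 0. There were 8 UMIs in 5 of 14 metastasis cells (175 CPM, 75.6 to 345) and 17 UMIs in 11 of 29 sham cells (167 CPM, 97.3 to 267), a log2 ratio of 0.07 (-1.35 to 1.36; 1.43 with clusters). In lung there were 2 UMIs in 22 metastasis cells and 0 in 8 sham cells. NK-like cells of the blood had 39.9 CPM in 50 metastasis cells (6 UMIs) and 19.0 CPM in 252 sham cells (20 UMIs), a log2 ratio of 1.07 (-0.53 to 2.44), and 0.46 without cells holding platelet UMIs. In them 4.02% of measured genes were higher by 2-fold or more.

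Over all classes 45 comparisons of a member between the arms had at least 20 UMIs and 10 cells in each library, 25 in lung and 20 in blood. Of the lung ones 5 were higher and 2 lower by 2-fold or more in the metastasis library, and of the blood ones 4 were higher and 2 lower. Over all genes measured in the same classes, 4.47% were higher and 5.3% lower in lung, and 6.25% higher and 5.0% lower in blood. The lower ones were Il1rn in neutrophil-like cells of both tissues, Il1b in blood neutrophil-like cells and Il1b in alveolar macrophage-like cells. In those macrophages the interval of the metastasis level held the level of haemoglobin-rich barcodes but lay above that of B-like cells. The higher ones were Il1r2 in blood classical and lung non-classical monocyte-like cells, Il1b, Il1r1 and Il1r2 in lung T-like cells, Il1r1 in blood neutrophil-like cells, Il1rap in blood NK-like cells, Il1b in blood B-like cells (2.54% of all genes measured there were higher) and Il1b in lung erythroid-like cells (16.7%). Of these 9, Il1b in erythroid-like, B-like and T-like cells, Il1r2 in T-like cells and Il1r1 in neutrophil-like cells were near or below the free RNA level. Among T-like subsets, 1 of 9 comparisons passed, Il1b in lung cells with no subset (1.73% of genes).

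**Figure D5:**
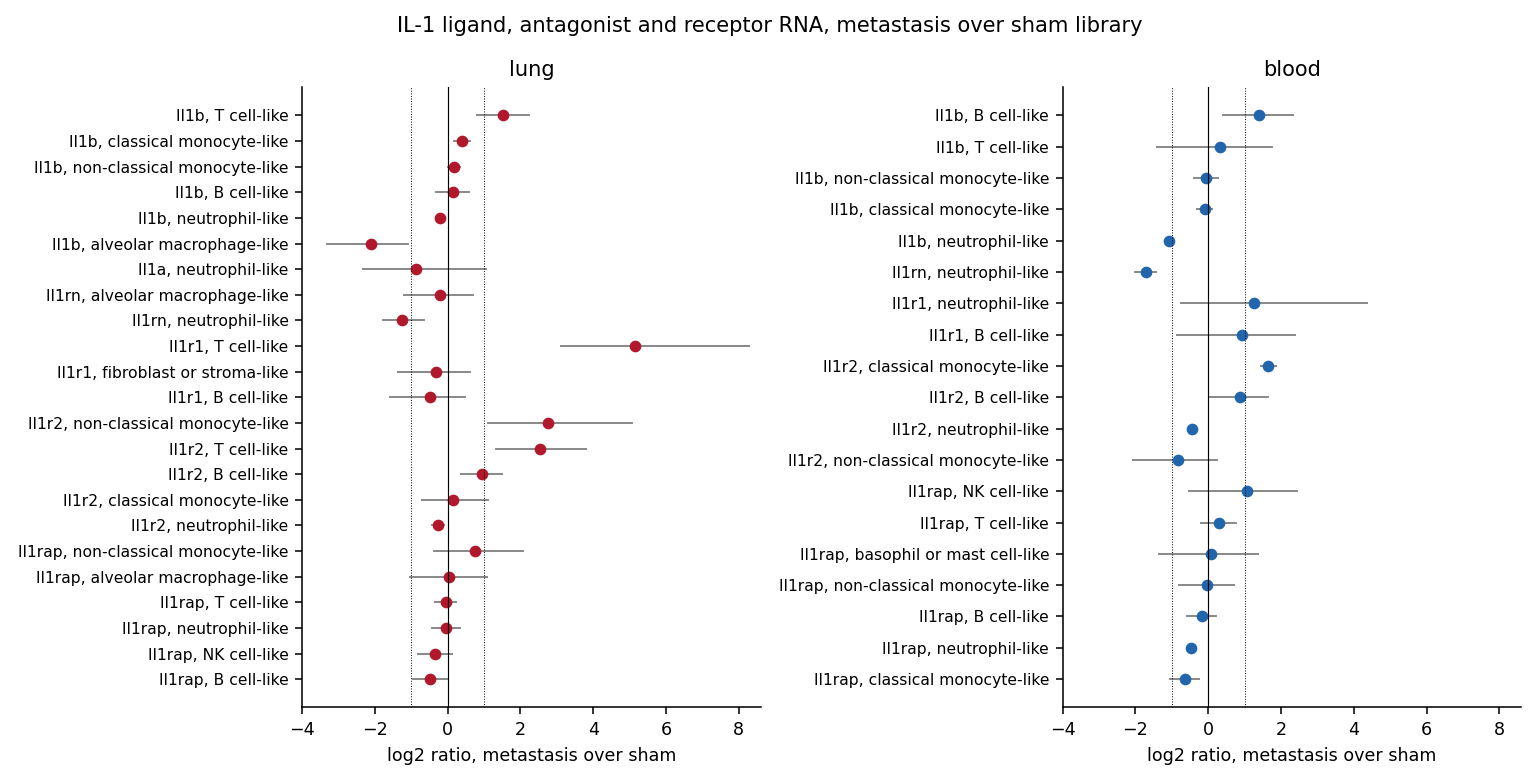
Log2 ratio of CPM, metastasis over sham, of each measured member by class, lung and blood in separate panels, with 95% intervals of counting error. Il1rn in neutrophil-like cells stands at -1.24 in lung and -1.72 in blood, and Il1r2 in blood classical monocyte-like cells at 1.65.

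Other genes of the IL-1 pathway, 44 of 49 listed found, differed by class. In blood neutrophil-like cells 4 of 32 measured passed 2-fold upwards and 6 downwards, beside 14.6% and 8.43% of all measured genes, and their median log2 ratio was -0.04, beside 0.03 over all measured genes. Pycard, the adaptor of the inflammasomes that activate caspase-1, stood at 63.0 CPM in metastasis blood and 5.92 CPM in sham blood, and Tab1, a partner of the kinase TAK1, at 5.08 and 1.48 CPM. Aim2, a DNA sensor, stood at 15.4 CPM in metastasis blood and 58.5 CPM in sham blood, and Il1rl1, the receptor of IL-33, at 1.84 and 7.40 CPM. In lung neutrophil-like cells 2 of 28 were higher and 1 lower, beside 8.58% and 9.1% of all measured genes. Pycard at 32.0 and 9.48 CPM and Nek7, an activator of NLRP3, at 28.5 and 9.48 CPM rested on 1 sham UMI each, and Irak2, a kinase of the receptor complex, stood at 215 CPM in metastasis lung and 455 CPM in sham lung.

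In blood classical monocyte-like cells 2 of 30 measured list genes were higher by 2-fold or more and 0 lower, beside 3.75% and 2.19% of all measured genes. Both are serine proteases of neutrophil granules that can cut IL-1 family proteins. Prtn3 was also among the genes with the highest fold in classical monocyte-like cells over all other kept cells. Elane had 35 UMIs (16.7 CPM) in metastasis blood and 1 UMI (0.50 CPM) in sham blood. Prtn3 stood at 162 CPM in metastasis blood and 32.2 CPM in sham blood. In lung, 0 of 21 passed in either direction in classical monocyte-like cells (6.26% of all genes higher, 2.64% lower) and 0 of 21 in non-classical ones (5.76% and 2.39%). In alveolar macrophage-like cells (3.31% and 4.02%) 1 of 15 did, the adaptor Myd88, at 38.7 CPM in metastasis lung and 94.7 CPM in sham lung.

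In blood basophil-like cells 2 of 6 measured list genes were higher and 1 lower. Il1rl1 stood at 306 CPM in metastasis blood and 98.2 CPM in sham blood (log2 ratio 1.64), and Mcpt8, also a class marker, at 2450 and 1159 CPM. The IL-18 receptor chain Il18r1 stood at 328 CPM in metastasis blood and 707 CPM in sham blood (-1.11). Of all 1141 genes measured in these cells 3.86% were higher and 8.33% lower by 2-fold or more. In fibroblast or stroma-like cells, which held Il1r1, 1 of 3 was higher and 1 lower, beside 5.79% and 8.68% of all genes. They were Irak3, an inhibitor of the pathway, at 255 CPM in metastasis lung and 68.1 CPM in sham lung, and Peli1, a ubiquitin ligase, at 45.0 and 157 CPM. In T-like cells 0 of 30 passed in lung (2.16% of all genes higher, 1.72% lower). In blood 2 of 29 were higher and 0 lower (2.66% and 2.94%), Irak2 at 35.7 and 17.2 CPM and Il1rl1 at 6.24 and 0.74 CPM in metastasis and sham blood.

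Genes with the most similar pattern over 32 units, each a class in 1 library with at least 50 cells, are given as a description, since classes of a library share its depth and free RNA. For Il1b they were Dgat2, Clec4e and Cd80 (Pearson r 0.99, 0.98 and 0.98), for Il1rn 9830107B12Rik, Hcar2 and Acod1 (0.98, 0.97 and 0.97), for Il1r2 Cd33, Ccr1 and Gm14548 (0.99, 0.99 and 0.98), and for Il1rap Lmnb1, Sfxn5 and Slc35a5 (0.96, 0.95 and 0.95). The r was taken on log2(CPM + 10) over 9102 genes. Il1a and Il1r1 reached 20 CPM in too few units to be compared.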

How the data were processed

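The 4 libraries are deposited as raw matrices of UMI counts per gene and cell barcode, made with Cell Ranger 7.0.0 per the file headers. The submitters' processing notes also name GRCm38.p6, R 4.3.1 and Seurat 4.3.0.1, with no role given. Depth was 127281060, 132540945, 112079231 and 116022872 UMIs in metastasis lung, sham lung, metastasis blood and sham blood. From these counts, barcodes had to hold at least 200 genes and no more than 10% mitochondrial UMIs, and 394, 689, 114 and 755 barcodes with a Scrublet score over 0.3 (expected rate 10%, scanpy 1.11.5) were removed as doublets. A cell joined the class of which it held at least 3 and 25% of the listed markers, where the next class had at most 0.67 of that share. This rule was set after the data were seen. UMIs were summed per class and library and scaled to 1000000 UMIs without haemoglobin. Intervals at 95% are exact Poisson for levels, Clopper-Pearson for shares above 0 and conditional binomial for ratios, and cover counting error only. A ratio needed 20 UMIs over both libraries and 10 cells in each, was called at 2-fold, and a count of 0 was set to the floor of 3 UMIs. No test was run, because each group is 1 library. Alternatives were other scalings, cell filters, doublets kept, Leiden clusters, a stricter gate, and cells without haemoglobin or platelet transcripts; single neutrophil clusters and alternatives to the lung over blood ratios were added after the data were seen. The ratio code was checked on simulated counts. Genome positions come from GENCODE vM21 on GRCm38 and promoter counts from RefSeq, in which all 6 members matched. Genes named from the pathway list are at most the 2 highest and 2 lowest past 2-fold in a class, and the most similar genes are the 3 with the highest r. The members and lists were chosen with earlier results of these data known. One listed type 17 marker is not reported here and was left out of the marker count.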

Additional observations from a re-analysis of the deposited data

Results flagged for a closer look

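Barcodes with markers of 2 classes, which enter no class above, held Il1b at a higher level in the metastasis libraries than in the sham libraries. In lung they had 1956 CPM in 91 metastasis barcodes and 650 CPM in 105 sham barcodes. In blood they had 1242 CPM in 96 metastasis barcodes and 522 CPM in 209 sham barcodes. They held 4.91% and 18.7% of the Il1b UMIs of metastasis and sham lung, and 5.37% and 13.5% of those of metastasis and sham blood. Il1r2 in them stood at 1531 CPM in metastasis blood and 262 CPM in sham blood.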

How the results depend on the processing

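No paired analysis was possible because each group is 1 library and the labels number no replicates, and for the same reason no library could be left out. Of Il1b ratios, lung neutrophil-like cells gave -0.025 with haemoglobin counted, -0.093 with clusters and -0.044 without cells over 5% haemoglobin. Blood neutrophil-like cells gave -1.20 with haemoglobin counted, -0.74 by the mean of each cell's CPM and -1.14 without cells holding 2 or more platelet UMIs. Classical monocyte-like cells gave 0.16 in lung by the mean of each cell's CPM, and in blood 0.89 under the stricter gate and 0.13 without platelet UMIs. Non-classical ones gave 0.73 in lung with clusters and -0.47 in blood without platelet UMIs. Among small counts, blood B-like Il1b turned to -0.95 with doublets kept, and lung erythroid-like Il1b to -0.93 with at least 400 genes and at most 5% mitochondrial UMIs. Without platelet UMIs the sham count of Il1r1 in blood neutrophil-like cells was 0, which leaves a lower bound of -0.67. Over all classes and T subsets, 10 comparisons were at least 2-fold higher and 4 lower; at 1.5-fold these were 17 and 8, and with at least 50 UMIs 5 and 4. With clusters the neutrophil-like share of Il1b UMIs was 35.5% in sham lung, 92.7% in metastasis blood and 80.7% in sham blood. Lung over blood ratios and ratios within 1 cluster were added after seeing the data. With clusters basophil-like Il1b in the metastasis arm turned to -0.47, under the stricter gate Il1r2 in non-classical monocyte-like cells of the sham arm turned to 2.48, and with doublets kept Il1r2 in B-like cells of the sham arm turned to -0.31 and their Il1b ratio was 0.17. Of the other values recomputed, 935 stayed within their interval and 166 moved beyond it. The cause of these shifts was not tested. Barcodes with 100 to 199 genes had no doublet score. The 51 neutrophil-like cells of sham lung and the basophil-like cells, 8 to 29 a library, limit those results most, and low counts of Il1a and Il1r1 leave 2-fold differences undetectable in most classes.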
